A study of Mus musculus with 2 samples.

Results

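The genes examined here carry out or control MHC class II antigen presentation, and 10 were listed by symbol: H2-Aa, H2-Ab1, H2-Eb1, H2-Ea-ps, H2-DMa, H2-DMb1, H2-DMb2, H2-Oa, Cd74 and Ciita. All 10 were found among the 16463 genes of the deposited table. Polyadenylated RNA was measured in 2 libraries of unstimulated bone marrow-derived macrophages, which were grown for 5 days in serum with L929 supernatant as the source of macrophage colony-stimulating factor, and the mice of both genotypes were labelled C57BL/6J. The TKO library came from mice described as mir-106a~363-/-, mir-106b~25-/- and mir-17~92flox/flox with Lyz2-Cre, and the WT library from mice with Lyz2-Cre alone, so that both genotypes carry the recombinase. The promoter of Lyz2, the lysozyme M gene, drives Cre in myeloid cells, so the mir-17~92 cluster is the only one of these whose loss depends on Cre activity. Each genotype had 1 library, which allows no test, and no difference reported here has a replicate check. The TKO library held 10656431 estimated counts and the WT library 10877897.

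MHC class II molecules are pairs of an alpha and a beta chain that display peptides from the endosomes and lysosomes to CD4 T cells. The invariant chain fills their groove until it is cut down to a short peptide, which DM then exchanges for antigen peptides, while DO inhibits DM. Transcription of the class II, DM and invariant chain genes depends largely on the transactivator CIITA, which does not bind DNA itself but docks on the RFX and NF-Y factors at paired promoter elements known as the X and Y boxes. Macrophages make little class II at rest and more after exposure to interferon gamma, and dendritic cells and B cells make it constitutively.

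Most of the 10 genes had more RNA in the TKO library than in the WT library, and the size of the difference varied widely among them. The pseudogene H2-Ea-ps was present in the TKO library and had no counts in the WT library. H2-DMb2 and H2-DMa were 7.14-fold and 2.13-fold higher in TKO, the classical chains and the invariant chain were between 1.22-fold and 1.72-fold higher, Ciita was level, and H2-DMb1 had fewer counts in TKO. A gene was called higher or lower where counts scaled by TMM (a factor that aligns most genes of the libraries) differed by 2-fold or more, the 95% counting interval excluded no change and 1 library had at least 20 counts. By this rule 3 of the 9 members past the count minimum were higher and 0 were lower, against 2.43% of 11525 genes higher and 2.3% lower in the whole table. H2-Ea-ps and H2-DMb2 passed the minimum only through the TKO library, where they are high, and so had to differ. Of the 7 members with at least 20 counts in both libraries, 1 was higher, H2-DMa, against 1.65% of 10999 genes. The median log2 ratio of TKO over WT was 0.66 over the 9 members past the minimum and 0.55 over the 7, beside 0.0043 and 0.0074 for all genes under the same filters. Where the authors' deposited table gives an FDR up to 0.05 and a 2-fold difference or more, it lists 3 of the 10 genes as higher in TKO and 0 as lower. By the same criteria 300 of all 16463 genes (1.82%) were higher and 324 were lower.

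**Figure D1:**
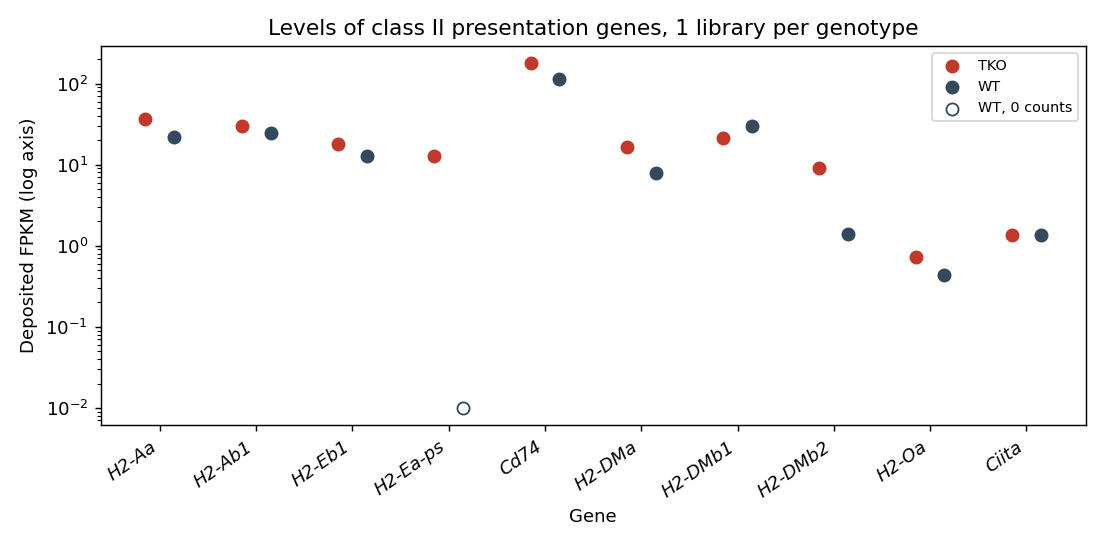
Deposited FPKM (log axis) of the 10 class II presentation genes in the TKO library (red) and the WT library (dark), with 1 library per genotype and no error bars. Cd74 is the highest in both, at 178.27 in TKO and 114.84 in WT, and H2-Ea-ps in WT (open circle) has 0 counts and is listed at 0.01.

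The classical chains, which form the displayed molecules, were all above 0 in log2 ratio. H2-Aa (Entrez 14960, chromosome 17, 34282744 to 34287823, GRCm38), the alpha chain of the A molecule, had 421 counts in TKO and 256 in WT, or 37.05 and 22.1 FPKM (fragments per kilobase of gene per 1e6 mapped fragments). This is a log2 ratio of 0.78 (95% counting interval 0.56 to 1.01), the value nearest below the 2-fold threshold. H2-Ab1 (Entrez 14961, chromosome 17, 34263227 to 34269418), the beta chain of the same molecule, had 371 counts in TKO and 317 in WT, a log2 ratio of 0.29 (0.07 to 0.51). The alpha chain was thus the more abundant of the pair by FPKM in TKO, with 1.25 times the level of the beta chain, and the less abundant in WT, with 0.891 times. H2-Eb1 (Entrez 14969, chromosome 17, 34305867 to 34316674), the beta chain of the E molecule, had 319 counts in TKO and 228 in WT, a log2 ratio of 0.55 (0.30 to 0.80). After removal of the dependence of ratios on gene length, H2-Aa was at 0.60, H2-Ab1 at 0.12 and H2-Eb1 at 0.43. The annotation places the antisense transcript Gm20513 across H2-Eb1, and no source used here gives the strand setting of the counting. Summed over the 3 genes, the classical chains made up 104 CPM (counts per 1e6 counts) in TKO, with an exact binomial interval of 98.2 to 111, and 73.6 CPM in WT (68.6 to 78.9), 1.45-fold more in TKO.

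The alpha chain of the E molecule showed the largest difference of the 10. H2-Ea-ps (Entrez 100504404, chromosome 17, 34341952 to 34344645) had 118 counts and 12.79 FPKM in TKO, and 0 counts in WT, where a count of 0 allows up to 0.276 CPM. With the 0 set to 3 counts, the gene was at least 41.2-fold higher in TKO. That bound leaves out the counting error of the TKO count, and the 95% counting interval of the ratio started at 33.0-fold. It stood at 0.710 times the FPKM of its partner H2-Eb1 in TKO. GENCODE M21 annotates it as a polymorphic pseudogene, a class for genes that are disrupted in the reference strain and intact in others. As background, mice of the b haplotype, which include C57BL/6, carry a deletion at the start of this gene and make no E alpha chain, whereas strains of several other haplotypes transcribe it and display the E molecule.

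Class I genes of the same region had the same kind of difference. H2-L had 7629 counts in TKO and 22 in WT, H2-Q10 had 422 and 1, H2-Q2 had 741 and 3, and H2-Q6 had 200 and 0. H2-K1 and H2-D1, the classical class I genes of the b haplotype, had log2 ratios of 0.54 and 0.20. These 6 genes were chosen for comparison with their values known. Whether the libraries carried different alleles of the MHC, and how reads of another allele would be counted on a C57BL/6J reference, was not tested, and the part of either in the values of the class II genes was not tested. Across all genes, 7 had 0 counts in WT and at least 50 in TKO, and 4 had 0 counts in TKO and at least 50 in WT. Among the 7 were Atp6v0c-ps2, H2-Q6, H2-Ea-ps and Gm8580, of which H2-Q6 and H2-Ea-ps lie on chromosome 17.

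**Figure D2:**
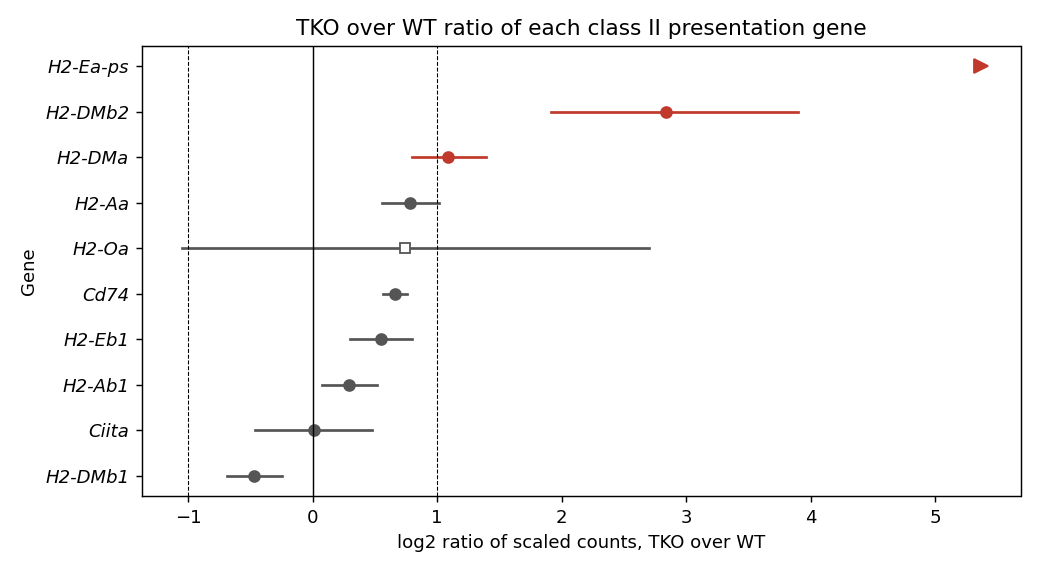
The log2 ratio of TMM-scaled counts, TKO over WT (horizontal axis), for each of the 10 genes, with 95% intervals for counting error; dashed lines mark 2-fold, red marks genes called higher, the open square is below the count minimum and the arrowhead is a lower bound. H2-Ea-ps, H2-DMb2 and H2-DMa lie beyond 2-fold, and H2-DMb1 is the only gene with an interval wholly below 0.

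The genes of DM, the molecule that loads peptides, had ratios of different sign. H2-DMa (Entrez 14998, chromosome 17, 34119693 to 34139101), the DM alpha chain, had 287 counts in TKO and 141 in WT, or 16.32 and 7.86 FPKM, a log2 ratio of 1.09 (0.80 to 1.39). After removal of the dependence of ratios on gene length the value was 0.97, below the threshold. H2-DMa overlaps Brd2 on the opposite strand in the annotation, and Brd2 had 4084 counts in TKO and 4263 in WT, a ratio of 1.00-fold.

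The DM beta chain is encoded by a pair of neighbouring paralogs. H2-DMb2 (Entrez 15000, chromosome 17, 34143229 to 34151553) had 75 counts in TKO and 11 in WT, a log2 ratio of 2.83 (1.91 to 3.90). H2-DMb1 (Entrez 14999, chromosome 17, 34153191 to 34160229) had 288 counts in TKO and 417 in WT, a log2 ratio of -0.47 (-0.69 to -0.25), which is 1.38-fold lower and short of the size rule. The intervals of both paralogs exclude 0, on opposite sides. H2-DMb2 took 20.7% of the pair's counts in TKO (exact binomial interval 16.6 to 25.2) and 2.57% in WT (1.29 to 4.55).

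Summed over both paralogs the difference was small. The pair had 363 counts in TKO and 428 in WT, and the log2 ratio was -0.17 (-0.38 to 0.03, which includes 0). The main GENCODE transcripts of H2-DMb1 and H2-DMb2, of 1404 and 1424 bases, were identical at 93.9% of 1255 aligned bases. They shared a longest exact run of 221 bases, and 27.2% of the stretches of 50 bases in H2-DMb1 also occurred in H2-DMb2. How reads were split between the paralogs is therefore uncertain, and the part of that split in the opposite signs was not tested. By FPKM, the alpha chain stood at 0.535 times the summed beta chains in TKO and 0.249 times in WT. The deposited length of H2-DMb2 was 786 bases, shorter than its main transcript, which raises its FPKM for a given count.

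**Figure D3:**
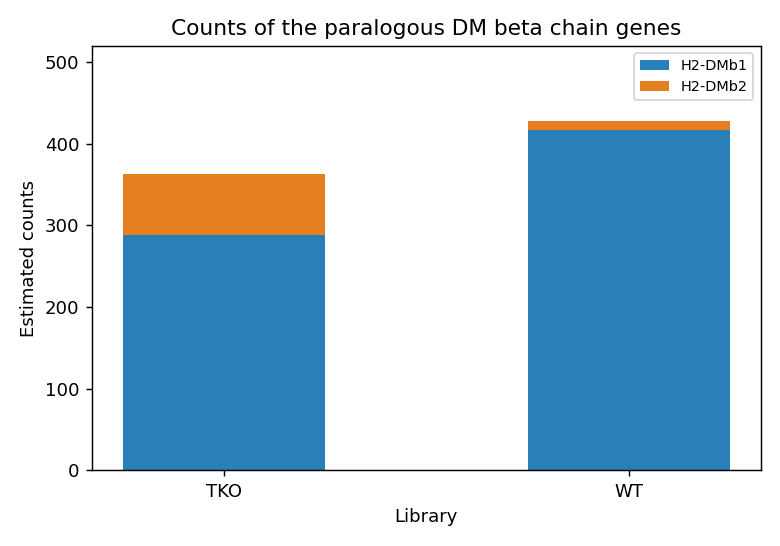
Estimated counts of H2-DMb1 (blue) and H2-DMb2 (orange), stacked, in the TKO library (left) and the WT library (right). The totals are 363 in TKO and 428 in WT, and H2-DMb2 makes up 75 of them in TKO and 11 in WT.

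Promoter sequences are shown because these genes share the X and Y boxes through which CIITA acts, and because the DM beta paralogs differ there. RefSeq windows of GRCm38.p6, from 250 bases before to 50 bases after a start, were matched for 6 of the 10 genes, H2-Aa, H2-Eb1, H2-DMa, H2-DMb1, H2-DMb2 and H2-Oa. H2-Ab1, H2-Ea-ps, Cd74 and Ciita were not matched. The search was for the X core AGNAAC followed on the same strand within 40 bases by the Y core ATTGG, on both strands. Windows of H2-Oa, H2-DMb1 and H2-Eb1 held both cores, against 2.11% of 32851 promoter windows, while the Y core alone was in 37.4% of all windows. The windows below run 5′ to 3′ on the gene's strand, with 45 bases before the Y core and 5 after it, and capitals mark the cores that were found. They lie at chr17:34153085-34153139 (plus strand) for H2-DMb1, chr17:34145114-34145168 (plus) for H2-DMb2, chr17:34305763-34305817 (plus) for H2-Eb1, chr17:34092291-34092345 (plus) for H2-Oa and chr17:34287862-34287916 (minus) for H2-Aa.
H2-DMb1: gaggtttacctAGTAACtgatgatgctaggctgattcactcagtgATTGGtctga
H2-DMb2: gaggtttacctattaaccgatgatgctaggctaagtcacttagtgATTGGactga
H2-Eb1: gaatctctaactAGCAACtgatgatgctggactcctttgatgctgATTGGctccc
H2-Oa: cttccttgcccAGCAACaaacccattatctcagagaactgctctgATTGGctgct
H2-Aa: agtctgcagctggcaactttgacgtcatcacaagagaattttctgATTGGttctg

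The cores of H2-DMb1 and H2-Oa were 28 bases apart and those of H2-Eb1 27 bases apart. The windows of the DM beta paralogs differed at 6 of 55 positions in the reference, and H2-DMb2 had the Y core without the searched X core. The H2-DMb2 window lies inside the span given for that gene, which begins at 34143229. The H2-DMb1 window lies before the first base given for H2-DMb1, 34153191. H2-Aa and H2-DMa also had the Y core without the searched X core, 48 and 198 bases before the starts used for their windows. The H2-DMa stretch, at 34125275 to 34125329, lies inside the span given for that gene, which begins at 34119693. In all, 6 of the 7 windows of the 6 genes held the Y core. These letters describe the C57BL/6J reference sequence, and no match says only that the searched letters are not in this window.

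The accessory and regulatory genes followed no common direction. H2-Oa (Entrez 15001, chromosome 17, 34092379 to 34095234), the alpha chain of DO, had 8 counts in TKO and 5 in WT, too few for either library to reach the count minimum. Its partner H2-Ob had 8 counts in TKO and 15 in WT, so DO transcripts were near the limit of detection in both libraries. Cd74 (Entrez 16149, chromosome 18, 60803849 to 60812652), the invariant chain, had 2363 counts in TKO and 1563 in WT, or 178.27 and 114.84 FPKM. Its log2 ratio was 0.66 (0.57 to 0.75), and 0.50 with the length trend removed. Cd74 was the most abundant of the 10 genes, at rank 382 of all genes by FPKM in TKO and rank 572 in WT. It stood at 4.81 times the FPKM of H2-Aa in TKO and 5.20 times in WT. Ciita (Entrez 12265, chromosome 16, 10480014 to 10531064), the transactivator, had 77 counts in TKO and 80 in WT, or 1.35 and 1.36 FPKM. Its log2 ratio of 0.01 had an interval of -0.46 to 0.48, which holds ratios of 0.727-fold to 1.39-fold, and its sign was negative with 4 other ways of scaling. The annotated span of Ciita overlaps Dexi on the opposite strand.

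The order of the 10 genes by FPKM differed in part between the libraries. In TKO it ran from Cd74 through H2-Aa, H2-Ab1, H2-DMb1, H2-Eb1, H2-DMa, H2-Ea-ps, H2-DMb2 and Ciita to H2-Oa. In WT, H2-DMb1 came second at 30.19 FPKM, against 21.29 FPKM in TKO, H2-Ab1 stood above H2-Aa, and H2-DMb2 at 1.38 FPKM stood beside Ciita at 1.36. Neighbours in these orders rest on 1 library each, so the spread between samples is not known. Summed over all 10 genes, the counts were 4327 in TKO and 3018 in WT, 1.5-fold more in TKO (1.43 to 1.57). Cd74 gave 2363 of these counts in TKO and 1563 in WT. Without Cd74, the 9 other genes summed to 1.41-fold more in TKO (1.32 to 1.51).

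Along chromosome 17 the class II genes are interleaved with genes of class I peptide supply. The interval from H2-Oa to H2-Ea-ps spans 252 kb and held 15 genes of the table, of which 12 passed the count minimum. Tap1, a subunit of the peptide transporter, had 1563 counts in TKO and 805 in WT and was 2.03-fold higher (1.87 to 2.21), the only one of the 7 other genes past the size rule. Scaled by library totals it was just short of 2-fold. Psmb9 and Psmb8, subunits of the immunoproteasome, were 1.76-fold and 1.70-fold higher, and Tap2, the other transporter subunit, 1.39-fold. The chromatin reader gene Brd2, which lies after H2-Oa and overlaps the span of H2-DMa, had a ratio of 1.00-fold. H2-Eb2 had 0 counts in TKO and 2 in WT.

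**Figure D4:**
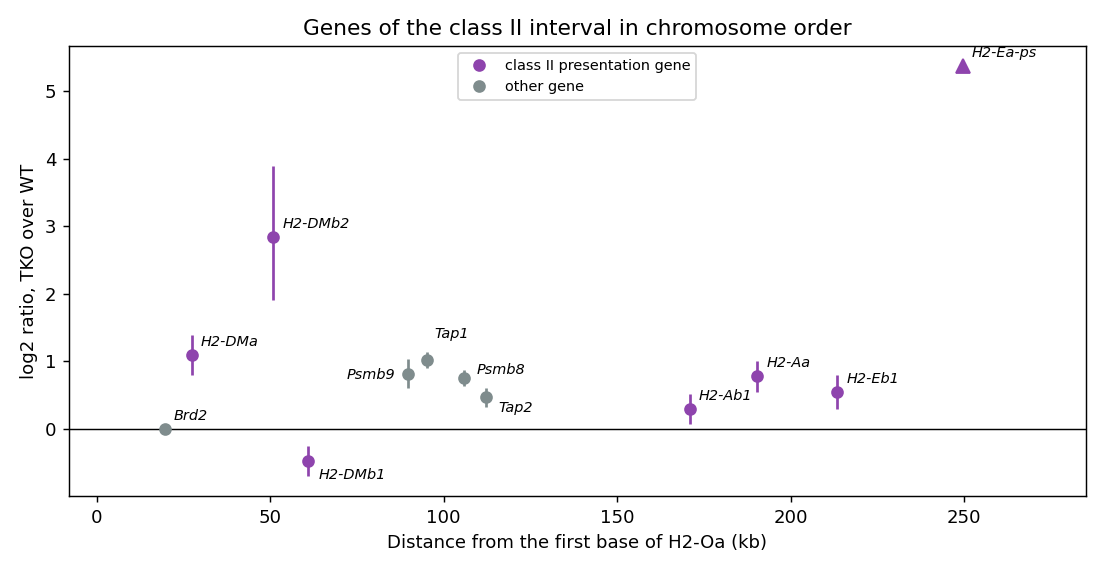
The log2 ratio of TKO over WT (vertical axis) of the 12 genes past the count minimum in the class II interval, against distance from the first base of H2-Oa in kb, with 95% intervals for counting error; purple marks class II presentation genes, grey other genes and the triangle a lower bound. Of the 12 genes, H2-DMb1 alone lies below 0, and Brd2 lies at 0.

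Most genes that act upstream of Ciita were not called. Of 11 listed genes, 2 were higher by the size rule and 0 lower, against 2.43% and 2.3% of all genes past the count minimum. The median log2 ratio of the list was 0.16, beside 0.0043 for all genes past the minimum. Socs1, which inhibits JAK kinases, had 28 counts in TKO and 12 in WT, a log2 ratio of 1.29 (0.27 to 2.40). It passed the count minimum only through the TKO library, where it is high, and with 20 counts required in both libraries 1 gene of the pathway lists was called higher in place of 2. Irf1, a transcription factor of the interferon response that acts at a promoter of Ciita, had a log2 ratio of 0.63 (0.47 to 0.79) and did not pass. The receptor genes Ifngr1 and Ifngr2 were at -0.03 and 0.21, and Spi1, the most abundant of the list by FPKM, was at 0.26. Irf1 had 810 counts in TKO and 548 in WT, beside a Ciita level of 77 counts in TKO and 80 in WT.

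The factors that hold CIITA at the promoter, listed together with coactivators such as Ep300, differed little. Of 11 listed genes none passed the size rule, and their median log2 ratio was -0.07. The RFX subunits Rfx5, Rfxap and Rfxank had log2 ratios of -0.03, 0.03 and 0.14, each with an interval that includes 0. Among the NF-Y subunits Nfya, the most abundant of the list by FPKM, was at -0.29 (-0.39 to -0.20), and Nfyb and Nfyc at -0.07 and 0.01. Creb1, which binds beside the X box, had the most negative value, -0.48, and Ep300, a coactivator that acetylates histones, was at -0.34. With the length trend removed Creb1 was at -0.13 and Ep300 at 0.01.

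Genes that process antigen and the invariant chain showed no call in either direction. Of 12 genes 10 had a log2 ratio above 0, against 50.6% of all genes past the count minimum, and the median log2 ratio was 0.33. Ctss, the protease that makes the last cuts of the invariant chain in antigen-presenting cells, had 48073 counts in TKO and 35326 in WT, a log2 ratio of 0.51 (0.49 to 0.53). Ctsl, which takes that role in thymic epithelium, had the opposite sign, with 19147 counts in TKO and 28437 in WT and a log2 ratio of -0.51 (-0.53 to -0.48). Ctse and Ctsh, other lysosomal or endosomal proteases, were at 0.55 and 0.53, and Ctsd, the most abundant of the list by FPKM, at 0.37. The high counts of Ctss, Ctsl and Ctsd give narrow intervals, which do not cover the spread between cultures.

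Genes of surface turnover and costimulation had a median log2 ratio of 0.18, and none of the 8 past the count minimum passed the size rule. Cd274, the inhibitory ligand PD-L1, had 460 counts in TKO and 269 in WT, a log2 ratio of 0.84 (0.62 to 1.06). Cd86, a costimulatory ligand, was at 0.56 and Icosl at 0.43. March1, the ubiquitin ligase that removes class II and CD86 from the surface, had 309 counts in TKO and 366 in WT, with an interval that includes 0 (-0.40 to 0.04), and March8, the most abundant by FPKM, was at 0.15.

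**Figure D5:**
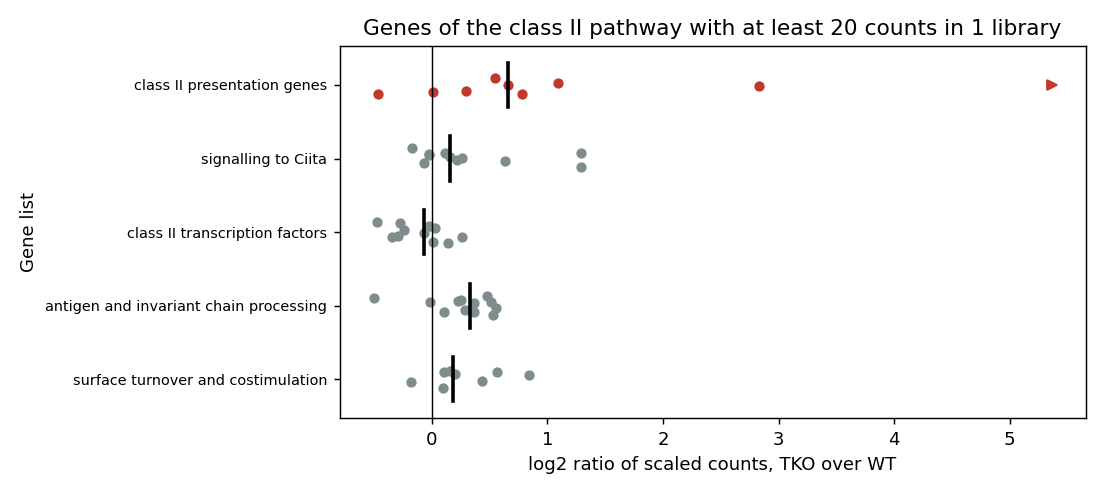
The log2 ratio of TKO over WT (horizontal axis) of genes past the count minimum, for the class II presentation genes (red, arrowhead a lower bound) and 4 lists of the pathway (grey), with black bars for the medians. The medians are 0.66, 0.16, -0.07, 0.33 and 0.18 from top to bottom.

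Markers of other cells that express class II were set beside these values, since in bulk RNA a change in the number of cells of a type and a change in RNA per cell cannot be told apart. Of 12 dendritic cell markers, 6 passed the count minimum and 4 of these were called higher, with 0 lower, against 2.43% and 2.3% of all genes, and the list summed to 1420 counts in TKO and 610 in WT. Itgax, the integrin CD11c, which macrophages also express, supplied 843 of these counts in TKO and 342 in WT, and Cd24a 414 and 177 counts. The other 2 called higher, Flt3 with 27 counts in TKO and 10 in WT and Dpp4 with 22 and 8, passed the minimum only through the TKO library. Among the other defining markers Xcr1 had 34 counts in TKO and 25 in WT, Clec9a 4 and 1, and Zbtb46 3 and 5, and none of these was called. Cd209a had 0 counts in TKO and 1 in WT. The part of dendritic cells in the values of the class II genes was not tested.

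B cell markers had few counts apart from Cd22. The 7 of 8 listed markers in the table summed to 179 counts in TKO and 168 in WT, of which Cd22 gave 146 and 117. Of the markers listed as defining, Ms4a1, Pax5 and Cd79a had 3, 0 and 1 counts in TKO and 0, 1 and 2 in WT, while Cd79b had 20 and 27 counts and Ebf1, with 8 and 21, was lower by the size rule and passed the minimum only through the WT library. The 10 macrophage markers ranged from 397 to 42948 counts in TKO and from 373 to 41379 in WT, none passed the size rule, and they summed to 124105 counts in TKO and 126361 in WT. The lowest in both libraries was Lyz2, the gene whose promoter drives Cre in both genotypes. What the Cre allele does to its counts was not tested. Single macrophage markers differed in both directions, 4 with a log2 ratio above 0 and 6 below 0, from 0.68 to -0.43. The host gene of mir-17~92, Mir17hg, had 42 counts in TKO and 8 in WT, and mature microRNAs were not measured, so the counts do not check the deletions.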

How the data were processed

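Among the tools and builds that the submitters' processing notes list, without a role for each, are HISAT2 (2.0.4), Bowtie2 (2.2.5), RSEM (1.2.12) and mm10. The annotation, filters and strand setting are not stated in any source used here. The deposited table holds expected counts (estimated reads per gene), FPKM values and a length per gene. Genes at 0 counts are listed by the authors at 0.01 FPKM. The authors' log2 ratio equals that of their FPKM values, the deposited p-value is from an unnamed test, and the deposited FDR was handled as a score, with 713 values above 1. The columns are named by genotype, and each was assigned to the only sample of that genotype.

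After rounding, counts were scaled by edgeR (4.0.16) TMM factors of 0.988 for TKO and 1.01 for WT. Ratios had no pseudocount, a single 0 was set to 3 counts, and no fold was computed where the other library had 3 or fewer. Intervals are exact conditional binomial (Clopper-Pearson, 95%) and, like the floor of 3 counts, cover counting error only, since PCR copies cannot be recognised here and are counted as separate molecules. The lowess trend of the ratio with gene length (span 0.3) was removed in 1 alternative. Coordinates came from RefSeq on GRCm38.p6, the assembly behind mm10, by Entrez identifier, and gene types and transcripts from GENCODE M21. Simulated counts with known fold changes were used to test the size rule. The changes were set in well-counted genes only and the simulated counts had no spread between cultures. The simulation therefore says nothing of calls on low counts or of differences between cultures.

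The members and lists were chosen with earlier results of these data known. Named were all 10 members, the other genes of the class II interval, and in each list the largest ratios, the most abundant gene and every gene past the size rule; other genes are examples chosen after their values were seen. A few genes that this rule would name are not reported here.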

Additional observations from a re-analysis of the deposited data

How the results depend on the processing

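The 3 members called higher were the same with library totals, DESeq2 1.42.0 size factors, log2 of FPKM plus 0.1 and a stricter interval. The count was 2 with log2 of FPKM plus 1, the length trend removed, a count minimum of 100, a 4-fold threshold, no count minimum (which leaves out H2-Ea-ps with its 0) and the H2-DMb pair summed as 1 gene. It was 5 at 1.5-fold, which adds H2-Aa and Cd74, and 1 with 20 counts required in both libraries, a filter chosen after seeing the data. The share of all genes called was computed only for the 2-fold rule with 20 counts in 1 library or in both. Counts at other settings, here and for the other lists below, therefore have no share of all genes beside them. No setting called a member lower. The median of the members, 0.66, was 0.50 with the length trend removed and 0.55 with 20 counts in both libraries. Of 50 values of single members over 5 settings, 48 stayed within the main counting interval, H2-Ea-ps with log2 of FPKM plus 1 (3.77) and Cd74 with the length trend removed (0.50) did not. The sign of Ciita turned in 4 of them. Among other genes of the pathway 2 were called higher, but 1 with log2 of FPKM plus 1, with a count minimum of 100, with a stricter interval and with 20 counts in both libraries, 4 at 1.5-fold and 0 at 4-fold. Among the neighbours 1 was called higher, but 0 with library totals, either FPKM setting and 4-fold, and 3 at 1.5-fold. The causes were not tested. No paired analysis was possible because each genotype had 1 library, and none could be left out. H2-Oa and H2-Ob are limited by depth.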
